A study of Mus musculus with 8 samples.

Results

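The 10 genes described here encode feedback inhibitors and transcriptional outputs of the ERK pathway. They are the phosphatase genes Dusp4 and Dusp6, the Sprouty and Spred genes Spry2, Spry4, Spred1 and Spred2, the ephrin receptor genes Epha2 and Epha4, and the ETS factor genes Etv4 and Etv5. They were chosen by name, and all 10 had values among the 17488 genes with values of the 48321 listed, and all 10 were among the 13959 genes tested.

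RNA came from E14 cells, a mouse embryonic stem cell line of the 129/Ola strain, in 4 groups of 2 libraries. The GSK3β line lacked the Gsk3β gene and carried a transgene for the mutant kinase GSK3Beta-L132G. The GSK3α line lacked the Gsk3α gene and carried a transgene for GSK3alpha-L195G. Mutations of this analog-sensitive type widen the site where ATP binds, so that a bulky compound such as 3MB-PP1 can block the mutant kinase. Each line was analysed after 5 µM 3MB-PP1 for 2 h and without treatment, and all cells had first been kept for 6 h in N2B27 medium without serum. No vehicle is named for untreated cells, no line without a mutant kinase is among the groups, and each paralog is represented by 1 line. The promoter of the transgenes is not given in the sources used here. Whether replicates came from separate cultures is not recorded. The p-values therefore reflect only how far the libraries of a group lay apart, in the gene itself and over all tested genes, which may be technical. Because the samples are bulk RNA, fewer cells of a type and less RNA per cell cannot be told apart.

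ERK is the last kinase of the RAS, RAF and MEK cascade, which FGF4 drives in mouse embryonic stem cells. Active ERK raises transcription of its own inhibitors: DUSP6 removes phosphate from ERK in the cytoplasm, DUSP4 acts in the nucleus, and Sprouty and Spred proteins act upstream on RAS and RAF. In the absence of ERK activity the repressor Capicua holds down several of these genes, among them the ETS factor genes of the PEA3 family, and ERK relieves that repression.

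The promoters of Dusp6, Epha2 and Spry2 are shown since they hold the letters searched for Capicua. Those of Epha4 and Etv5 are shown as promoters of genes that rose with 3MB-PP1 in the GSK3β line. Promoters of Spred1, Spred2 and the other Etv5 start were searched without a match and are not printed. The printed set was thus chosen in part by the match and does not compare genes that fell with genes that rose. Sequences and starts are those of RefSeq on GRCm38.p6, the assembly also called mm10. The search covered windows from 250 bases before to 50 bases after a start, on both strands, and the 250 bases before the start are printed 5′ to 3′ on the gene's strand. Capitals mark TGAATGA or its partner TCAATGA, which appears in the Spry2 promoter as its reverse complement. Only these forms were searched, so longer or other forms of the Capicua motif are neither marked nor counted.
Dusp6, chr10:99262981-99263230, plus strand: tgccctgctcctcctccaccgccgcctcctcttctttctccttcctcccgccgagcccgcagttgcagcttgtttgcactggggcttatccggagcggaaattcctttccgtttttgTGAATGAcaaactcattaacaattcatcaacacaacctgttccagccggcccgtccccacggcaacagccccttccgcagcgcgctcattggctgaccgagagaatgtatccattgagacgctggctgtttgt
Epha2, chr4:141300971-141301220, plus strand: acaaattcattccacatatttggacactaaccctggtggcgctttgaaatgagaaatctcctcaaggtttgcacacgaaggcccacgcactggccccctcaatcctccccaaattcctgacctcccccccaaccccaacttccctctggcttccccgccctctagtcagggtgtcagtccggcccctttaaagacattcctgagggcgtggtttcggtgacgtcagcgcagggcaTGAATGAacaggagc
Spry2, chr14:105896820-105897069, minus strand: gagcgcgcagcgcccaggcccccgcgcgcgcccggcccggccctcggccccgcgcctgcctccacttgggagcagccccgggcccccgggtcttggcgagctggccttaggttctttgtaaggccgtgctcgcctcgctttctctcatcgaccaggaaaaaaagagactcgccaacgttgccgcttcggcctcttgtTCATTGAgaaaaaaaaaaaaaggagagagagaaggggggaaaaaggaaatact
Epha4, chr1:77515089-77515338, minus strand: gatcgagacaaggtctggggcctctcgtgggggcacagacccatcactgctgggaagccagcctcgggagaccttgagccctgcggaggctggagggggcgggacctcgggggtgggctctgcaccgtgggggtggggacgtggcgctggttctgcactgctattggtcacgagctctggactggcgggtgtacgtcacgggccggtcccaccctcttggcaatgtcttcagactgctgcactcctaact
Etv5, chr16:22439571-22439820, minus strand: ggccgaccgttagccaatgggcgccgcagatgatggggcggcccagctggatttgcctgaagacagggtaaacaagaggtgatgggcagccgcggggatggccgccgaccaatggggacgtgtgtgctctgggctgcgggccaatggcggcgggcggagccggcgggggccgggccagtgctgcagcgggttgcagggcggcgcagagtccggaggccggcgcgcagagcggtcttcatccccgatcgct

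Chromosome 18, which carries Spry4, was not searched, and Dusp4 and Etv4 had no window. The 32817 windows searched held 8 windows of 7 members, with 2 starts for Etv5 and 1 each for Dusp6, Epha2, Epha4, Spred1, Spred2 and Spry2. One of the 2 forms searched for Capicua was in 3 of these 8 windows and in 6.02% of all windows. The match lay 133 bases before the start of Dusp6, 15 bases before that of Epha2 and 53 bases before that of Spry2. The ETS motif CCGGAAG was in 0 of the 8 windows and in 8.86% of all, the AP-1 motif TGANTCA in 0 and 7.81%, and the TCF/LEF motif CTTTGAT in 0 and 3.73%. A match of letters is a description of the window and does not show that a factor was bound.

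Values are scaled counts, the gene counts that the authors brought to an equal upper quartile in all libraries. The reads behind each library were estimated at 31.2 and 32.4 M for the GSK3β line with 3MB-PP1, 23.8 and 28.9 M for that line untreated, 26.0 and 26.4 M for the GSK3α line with 3MB-PP1 and 21.5 and 22.7 M for that line untreated. Treated libraries were deeper than untreated ones in both lines. The part of depth in the results was not tested. Each member rested on at least 379 estimated reads in every library. Gsk3b averaged 245.5 ± 14.9 scaled counts in the untreated GSK3β line and 56.5 ± 2.50 in the untreated GSK3α line, and Gsk3a averaged 77.0 ± 1.21 in the untreated GSK3β line and 157.7 ± 3.31 in the untreated GSK3α line (SD, n = 2 each). Reads of a transgene count toward its gene. All 8 pluripotency markers had values, with sums of 6085 to 6311 in every library. In the GSK3β line with 3MB-PP1 3 of the 8 passed as higher, Klf4 (means of 192.7 with 3MB-PP1 and 127.9 untreated), Esrrb (648 and 556.8) and Nanog (971.2 and 882.2), and Tdgf1 (453.1 and 536.9) passed as lower. Over all tested genes 7.49% passed as higher there and 7.44% as lower. The Nanog call ended without 3MB-PP1 replicate 1 of the line (adjusted p = 0.09) and without the mean-variance trend of limma (0.0887). In the GSK3α line 0 of the 8 passed with limma, and 1 had an unadjusted p under 0.05. Fibroblast markers summed to 11.3 to 16.1, with Col3a1, Postn, Dcn and Lum without values, and those of primitive endoderm to 10.3 to 12.1.

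Per kb of annotated exon, Etv5 had the highest mean level of the 10 genes in every group, at 156 ± 3.05 scaled counts per kb in the GSK3β line with 3MB-PP1 and 135 ± 3.31 in that line untreated. The order behind it differed between these groups. With 3MB-PP1 it ran Etv4 (22.6), Spred2 (17.6), Epha2 (14.6), Spry2 (13.1), Spred1 (8.88), Epha4 (8.04), Dusp6 (6.93), Spry4 (5.13) and Dusp4 (4.59). In the untreated GSK3β line it ran Epha2 (26.0), Etv4 (20.8), Spred2 (18.9), Dusp6 (16), Spry2 (14.7), Spry4 (9.99), Spred1 (8.89), Dusp4 (5.83) and Epha4 (5.10). Libraries of neighbours in either order did not overlap. In the GSK3α line Etv5 stood at 137 with 3MB-PP1 and at 142 untreated. Dusp4 and Epha4 were the lowest there, at 5.49 and 6.54 with 3MB-PP1 and at 7.18 and 6.93 untreated, where the libraries of Dusp4 and Epha4 overlapped.

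**Figure D1:**
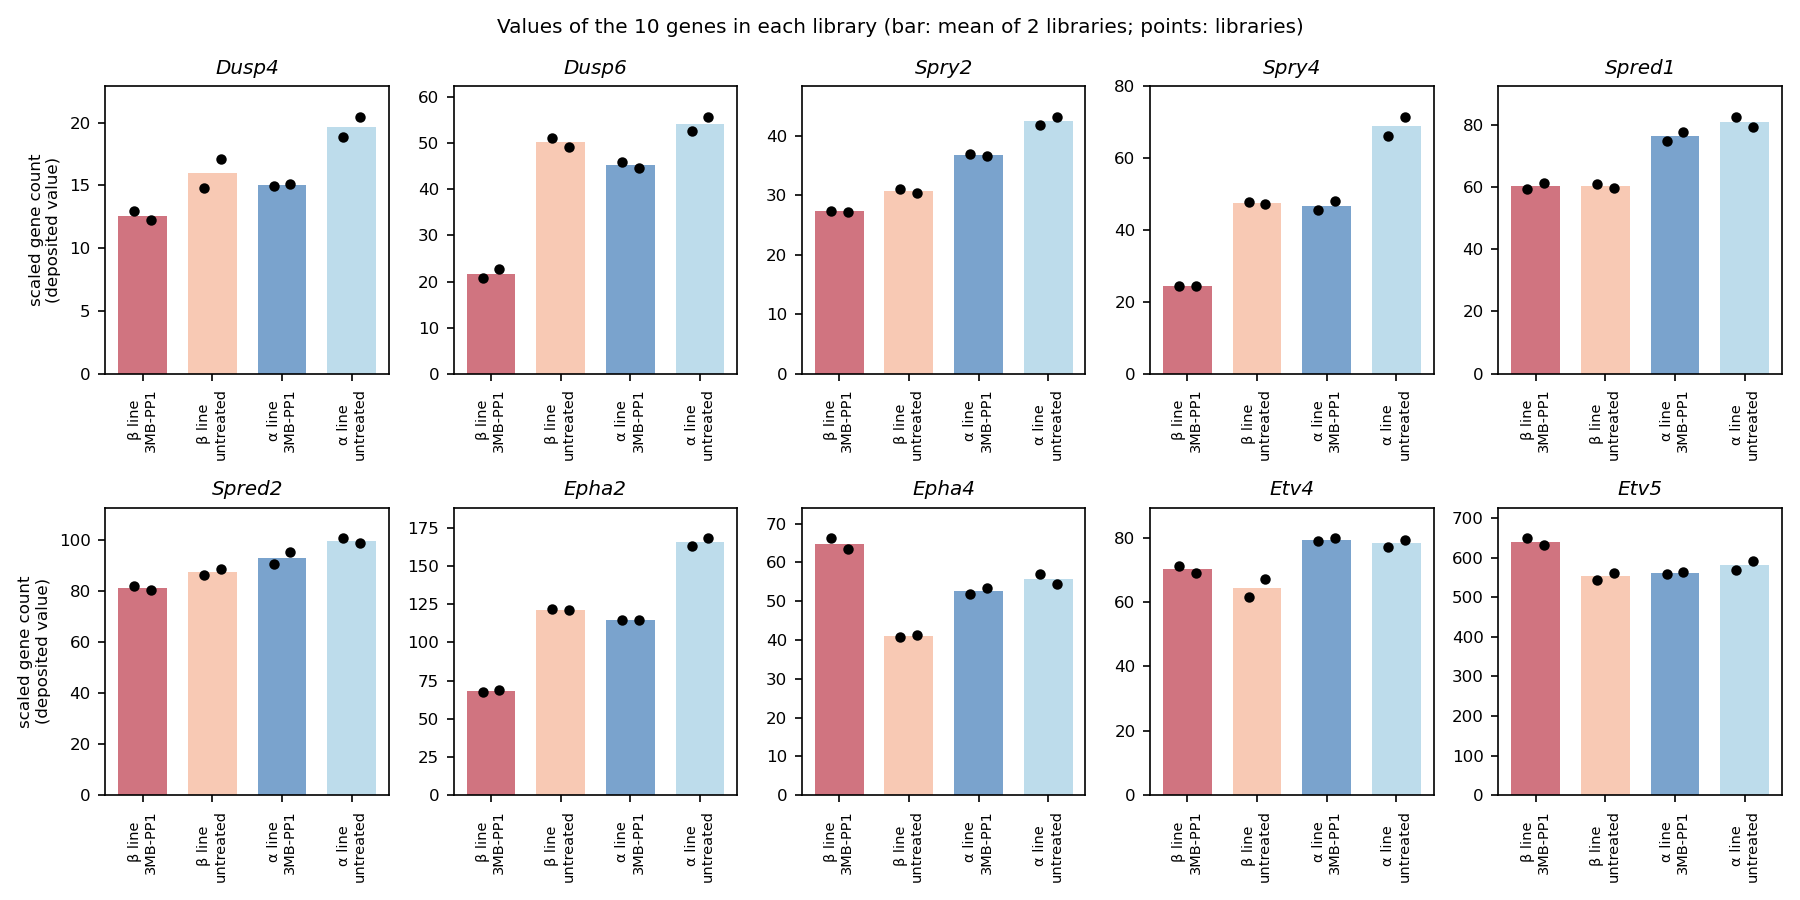
Scaled counts of the 10 genes in each library (points) with the mean of the 2 libraries (bar, from 0) on the vertical axis, in the 4 groups on the horizontal axis. Dusp6 lies at 20.7 and 22.7 in the GSK3β line with 3MB-PP1, below all other libraries, and Epha4 lies highest there at 66.2 and 63.4.

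Inhibition in the GSK3β line asks how these genes respond within 2 h when the mutant GSK3β kinase is blocked. The genes split. Dusp6, Spry4 and Epha2 fell most, to 43.2%, 51.4% and 56.2% of their untreated means, Dusp4 and Spry2 fell less, and Epha4 and Etv5 rose to 158% and 116%. Of the 10 genes 5 fell, 2 rose and 3 did not pass the test, where 7.44% of all tested genes fell and 7.49% rose (adjusted p under 0.05, limma with Benjamini-Hochberg adjustment over 13959 genes). The median log2 change of the 10 genes was -0.13, against -0.0057 over all tested genes.

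Dusp6 (chromosome 10, 99263231 to 99267489, mm10) encodes the cytoplasmic ERK phosphatase. It had 20.7 and 22.7 scaled counts in the GSK3β line with 3MB-PP1, against 51.05 and 49.27 in that line untreated. Both treated libraries lay far below both untreated ones. The log2 change was -1.17 ± 0.05 (SE; limma adjusted p = 2.15e-11), and in a ranking of all 13959 genes from the lowest log2 change Dusp6 stood at position 5. Dusp4 (chromosome 8, 34807297 to 34819894) encodes the nuclear phosphatase of the pair. Its scaled counts were 12.9 and 12.2 with 3MB-PP1, against 14.8 and 17.1 untreated, and the groups did not overlap. The log2 change of Dusp4 was -0.32 ± 0.08 (limma adjusted p = 0.00673), and the call ended without 3MB-PP1 replicate 2 (-0.28, adjusted p = 0.0676), without untreated replicate 2 (-0.22, adjusted p = 0.0823) and without the mean-variance trend (adjusted p = 0.0549).

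Spry4 (chromosome 18, 38586247 to 38601415) encodes a Sprouty inhibitor of RAS to ERK signalling. It had 24.4 in both libraries of the GSK3β line with 3MB-PP1, against 47.81 and 47.15 untreated. The libraries within each group lay close together and the groups were far apart, with a log2 change of -0.93 ± 0.05 (limma adjusted p = 2.01e-10) and position 10 from the lowest. Spry2 (chromosome 14, 105891947 to 105896819), a second Sprouty gene, had 27.4 and 27.2 with 3MB-PP1, against 31.1 and 30.45 untreated. Its groups did not overlap, but the distance was small: the log2 change was -0.17 ± 0.05 (limma adjusted p = 0.0226). That call ended without 3MB-PP1 replicate 1 (-0.17, adjusted p = 0.123), 3MB-PP1 replicate 2 (-0.16, 0.111) or untreated replicate 1 (-0.15, 0.12), and without the mean-variance trend (0.0516).

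The Spred genes encode membrane-bound relatives of Sprouty that act on RAS and RAF. Spred1 (chromosome 2, 117121374 to 117182279) had 59.2 and 61.3 with 3MB-PP1, against 60.9 and 59.7 in the untreated GSK3β line, so the groups overlapped. Its log2 change was -0.0011, with an adjusted p of 0.990 and a 95% interval of -0.084 to 0.082, and it did not pass. Spred2 (chromosome 11, 19924375 to 20024026) had 82.1 and 80.6 with 3MB-PP1, against 86.35 and 88.59 untreated. The groups of Spred2 did not overlap, yet the log2 change of -0.10 ± 0.04 missed the threshold (adjusted p = 0.0671, interval -0.18 to -0.026).

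The pair of ephrin receptor genes moved in opposite directions. Epha2 (chromosome 4, 141301240 to 141329384), a receptor tyrosine kinase gene induced by RAS and ERK signalling in other cells, had 67.9 and 68.6 with 3MB-PP1, against 121.7 and 121.4 in the untreated GSK3β line. The distance between the groups was many times that between libraries, at a log2 change of -0.82 ± 0.03 (limma adjusted p = 9.1e-12) and position 17 from the lowest. Epha4 (chromosome 1, 77367185 to 77515088), a receptor for ephrins of both classes, had 66.2 and 63.4 with 3MB-PP1, against 40.8 and 41.4 untreated. Both treated libraries lay above the untreated ones, at a log2 change of 0.64 ± 0.04 (limma adjusted p = 4.32e-09).

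Etv4 and Etv5 encode ETS transcription factors of the PEA3 family. Etv5 (chromosome 16, 22381309 to 22439719) had 649.1 and 631.5 with 3MB-PP1, against 543.3 and 562.6 in the untreated GSK3β line. It rose with no overlap, at a log2 change of 0.21 ± 0.03 (limma adjusted p = 7.42e-05), opposite in sign to Dusp6, Spry4 and Epha2. Etv4 (chromosome 11, 101769742 to 101785371) had 71.33 and 69.05 with 3MB-PP1, against 61.5 and 67.3 untreated. The log2 change of 0.12 ± 0.04 did not pass (adjusted p = 0.0599, 95% interval 0.034 to 0.21). It passed with median-of-ratios scaling (0.13, adjusted p = 0.0466) and without untreated replicate 2 of the line (0.19, adjusted p = 0.00643).

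**Figure D2:**
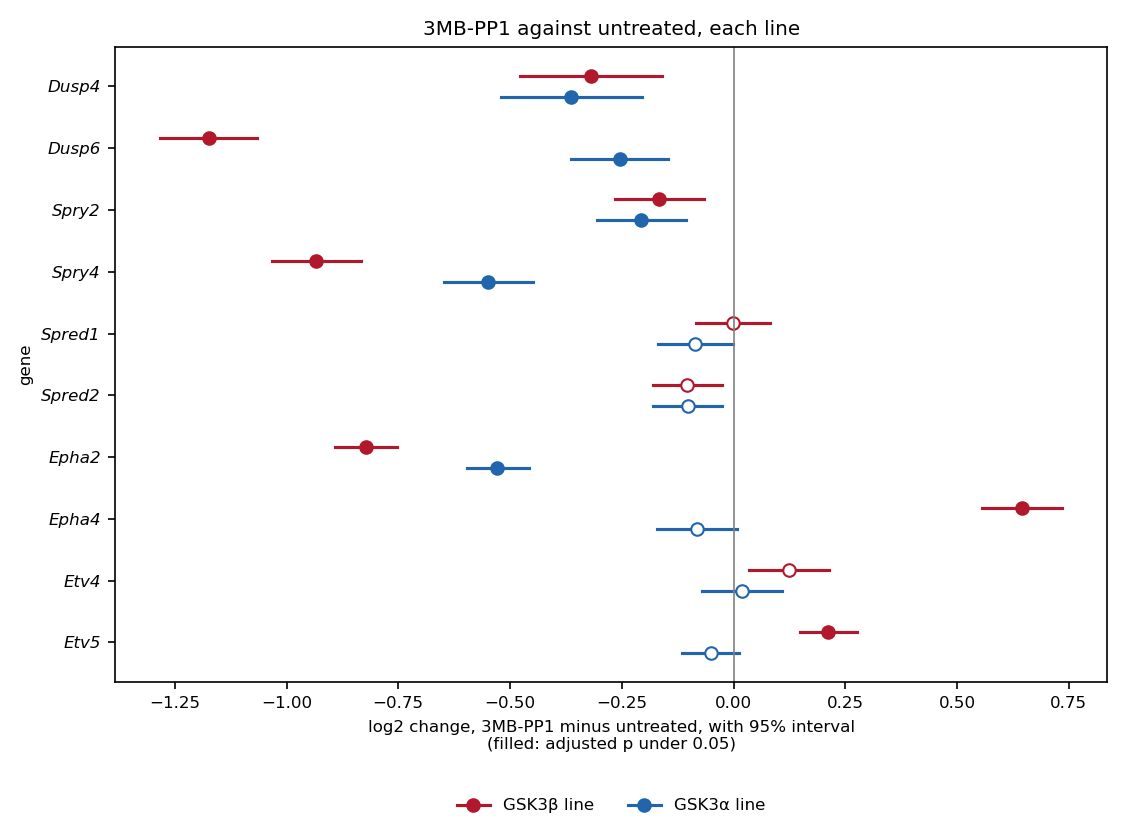
Log2 change with 3MB-PP1 (3MB-PP1 minus untreated, horizontal axis) with its 95% interval for each gene, in the GSK3β line (red) and the GSK3α line (blue); filled points had an adjusted p under 0.05. Dusp6 lies at -1.17 in the GSK3β line and at -0.25 in the GSK3α line, and Epha4 lies at 0.64 and at -0.081.

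Other genes of the pathway were read from 9 lists, beside the 7.44% of all tested genes that fell and the 7.49% that rose in the GSK3β line. Of the 11 other ERK-dependent transcripts 6 fell and 0 rose in the GSK3β line, at a median log2 change of -0.13, and 3 to 6 fell over 16 alternatives. Myc, a growth regulator, had 20.1 in both libraries with 3MB-PP1, against 37.45 and 37.18 untreated (log2 -0.86, limma adjusted p = 4.79e-08), and the AP-1 gene Junb had a log2 change of -0.52 (adjusted p = 0.000218). Of the 6 tested FGF ligand and receptor genes 3 fell and 1 rose: Fgf15 (log2 -1.18), Fgf5 (-0.98) and Fgf4 (-0.52) fell, and Fgfr1, named after its value was seen, rose by 0.11. Fgf4, the ligand that drives ERK in these cells, had 178.5 and 184.6 with 3MB-PP1, against 267.3 and 255.8 untreated. Fgf5 was low throughout, at 1.502 and 1.81 with 3MB-PP1 and 4.535 and 3.945 untreated. Of 17 other ETS genes 2 rose and 0 fell: Spic (log2 1.05), at 8.13 and 7.82 with 3MB-PP1, against 3.57 and 3.09 untreated, and Elf3 (0.51).

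Of 25 RAS-ERK core genes, which encode the cascade itself, 3 fell and 1 rose, and over 16 alternatives 1 to 3 fell and 0 to 1 rose. Over all tested genes 7.44% fell and 7.49% rose. Mapk3, which encodes ERK1, had 50.6 and 47.9 with 3MB-PP1, against 57.4 and 57.0 untreated (log2 -0.21, limma adjusted p = 0.00157). Calls of the RAS inhibitor genes Rasa3 (log2 0.19, limma adjusted p = 0.0479) and Rasa1 (-0.13, 0.0398) held under only 6 and 9 of the 16 alternatives. Leaving out 1 library ended that of Rasa3 for either 3MB-PP1 library of the GSK3α line (adjusted p = 0.0518 and 0.0505) and for each library of the GSK3β line (3MB-PP1 0.336 and 0.0781, untreated 0.161 and 0.0907). That of Rasa1 ended without either 3MB-PP1 library of the GSK3α line (adjusted p = 0.0547 and 0.0549) and without 3MB-PP1 replicate 1 (0.385) or untreated replicate 2 (0.183) of the GSK3β line. Cic, the gene of Capicua, was 1 of the 3 Capicua complex genes and rose by 0.19 (limma adjusted p = 0.0024), a call that ended without the mean-variance trend (adjusted p = 0.0681). Of the 3 tested other Sprouty, Spred and Sef genes 0 passed with limma, and 1 had an unadjusted p under 0.05, as did 28.5% of all tested genes. In the remaining lists 1 of 6 other phosphatase genes rose (Dusp16, log2 0.13), as did 1 of 7 other Eph receptors (Ephb2, 0.22) and 1 of 8 ephrins (Efnb1, 0.46), with 0 lower, beside the 7.49% of all tested genes that rose. All 3 calls ended without untreated replicate 1 of the line (adjusted p = 0.155 for Dusp16, 0.201 for Ephb2 and 0.106 for Efnb1) and without its 3MB-PP1 replicate 2 (0.0907, 0.228 and 0.135). Those of Dusp16 and Ephb2 also ended without 3MB-PP1 replicate 1 (adjusted p = 0.0886 and 0.0565) and without the mean-variance trend (0.112 and 0.0724), and that of Ephb2 with only the 4 libraries of the line (0.0548). Neural markers moved beside these changes: the 5 of 6 with values summed to 228.2 and 219.8 with 3MB-PP1, against 158.4 and 168.3 in the untreated GSK3β line. Most of that sum was Tubb3 (means of 179.0 with 3MB-PP1 and 124.7 untreated) and Nes (32.3 and 22.3), which passed as higher, while Neurod1 (6.16 and 8.87) passed as lower, and the median log2 change of the 5 was 0.0046. The Neurod1 call ended without untreated replicate 1 (adjusted p = 0.0916) or 3MB-PP1 replicate 1 (0.0595) of the line. The 5 of 6 trophoblast markers with values summed to 21.5 and 23.3, against 17.9 and 18.8. Of the 4 tested, 2 had a log2 change above 0 and 2 below. With limma 0 of the 4 passed the threshold, and 1 had an unadjusted p under 0.05. Cdx2, the trophoblast marker with values that was not tested, averaged 2.85 with 3MB-PP1 and 0.258 untreated. It fell short of the minimum mean value for testing. The 4 of 5 mesendoderm markers with values summed to 5.13 and 4.31, against 2.50 and 3.49, and 2 of 3 tested passed as higher, Gsc (1.82 and 0.943) and Evx1 (1.46 and 0.704). Each of these 2 calls ended without untreated replicate 1 of the line (adjusted p = 0.116 for Gsc and 0.104 for Evx1) or its 3MB-PP1 replicate 1 (0.154 and 0.288), that of Gsc also without 3MB-PP1 replicate 2 (0.0518) and that of Evx1 without untreated replicate 2 (0.0672). Marker genes are named after their values were seen. Their part in the results was not tested.

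The GSK3α line asks the same with the mutant GSK3α kinase. The genes that passed were all lower with 3MB-PP1. Spry4 and Epha2 fell most, to 67.9% and 69.2% of the untreated means, followed by Dusp4, Dusp6 and Spry2, while the Spred genes, Epha4, Etv4 and Etv5 did not pass. Of the 10 genes 5 fell and 0 rose with limma (7 had an unadjusted p under 0.05, as did 11.8% of all tested genes), where 0.616% of all tested genes fell and 0.265% rose. Without the mean-variance trend only Epha2 passed. The median log2 change was -0.15, against 0.0070 over all tested genes.

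Dusp6 had 45.9 and 44.5 in the GSK3α line with 3MB-PP1, against 52.6 and 55.7 in that line untreated. The groups did not overlap, and the log2 change was -0.25 ± 0.05 (limma adjusted p = 0.0205). That call ended without 3MB-PP1 replicate 1 (-0.28, adjusted p = 0.197), 3MB-PP1 replicate 2 (-0.23, 0.199) or untreated replicate 2 (-0.21, 0.161). Dusp4 had 14.97 and 15.14 with 3MB-PP1, against 18.9 and 20.5 untreated, at a log2 change of -0.36 ± 0.08 (limma adjusted p = 0.0257). Its treated libraries were both lower, but the call ended without any 1 of the line's libraries: 3MB-PP1 replicates 1 and 2 (adjusted p = 0.293 and 0.158) and untreated replicates 1 and 2 (0.0521 and 0.174), at log2 changes of -0.31 to -0.42.

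Spry4 had 45.5 and 48.0 with 3MB-PP1, against 66.2 and 71.5 in the untreated GSK3α line. It was lower in both treated libraries, at a log2 change of -0.55 ± 0.05 (limma adjusted p = 2.02e-06), position 15 from the lowest among all genes. Spry2 had 36.96 and 36.55 with 3MB-PP1, against 41.9 and 43.2 untreated. Its log2 change of -0.21 ± 0.05 passed with limma (adjusted p = 0.0440) and ended without any 1 of the line's libraries (3MB-PP1 replicates 1 and 2 at adjusted p = 0.334 and 0.239, untreated replicates 1 and 2 at 0.119 and 0.208) and without either 3MB-PP1 library of the GSK3β line (0.0704 and 0.0705). It also ended under quantile normalization (0.0588) and with a replicate block (0.0632). Spred1 had 74.8 and 77.6 with 3MB-PP1, against 82.5 and 79.3 untreated (log2 -0.085, 95% interval -0.17 to -0.0023, adjusted p = 0.406). Spred2 had 90.6 and 95.4, against 100.8 and 99.0 (log2 -0.10, interval -0.18 to -0.025, adjusted p = 0.256). Neither Spred gene passed, although the treated libraries of both were below the untreated ones.

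Epha2 had 114.4 and 114.6 with 3MB-PP1, against 162.9 and 168.2 in the untreated GSK3α line. Both treated libraries were well below the untreated ones, at a log2 change of -0.53 ± 0.03 (limma adjusted p = 1.48e-08). Epha4 had 52.0 and 53.4 with 3MB-PP1, against 57.1 and 54.5 untreated, and did not pass (log2 -0.081, interval -0.17 to 0.0084, adjusted p = 0.476). Etv5 had 558.1 and 562.8, against 569.4 and 592.2 (log2 -0.051, interval -0.11 to 0.012, adjusted p = 0.537). Etv4 had 79.0 and 79.8, against 77.2 and 79.4, with overlapping groups (log2 0.020, interval -0.070 to 0.11, adjusted p = 0.905). The ETS pair and Epha4 thus showed no detectable response in this line at this precision.

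Among the other ERK-dependent transcripts of the GSK3α line 1 of 11 fell, Myc, with 26.3 and 28.1 with 3MB-PP1, against 34.7 and 42.0 untreated (log2 -0.48, limma adjusted p = 0.00154). The call of Myc ended without 3MB-PP1 replicate 1 (-0.43, adjusted p = 0.0724) and without the mean-variance trend (0.224). Of the 6 tested FGF genes Fgf15 fell and Fgf4 rose, where 0.616% of all tested genes fell and 0.265% rose. Fgf15 had 5.81 and 6.26 with 3MB-PP1, against 8.41 and 9.90 untreated (log2 -0.53, limma adjusted p = 0.0167). The call of Fgf15 ended without 3MB-PP1 replicate 1 (-0.48, adjusted p = 0.29), 3MB-PP1 replicate 2 (-0.57, 0.0943) or untreated replicate 2 (-0.42, 0.15) and without the mean-variance trend (0.237). Fgf4 had 249.8 and 255.5 with 3MB-PP1, against 231.5 and 227.9 untreated, at the edge of the threshold (log2 0.14, limma adjusted p = 0.0497). That call held under 4 of 16 alternatives. It ended without any 1 of the 4 libraries of this line or of the 2 GSK3β libraries with 3MB-PP1 (adjusted p = 0.0704 to 0.324). The other 7 lists had 0 genes past the threshold with limma. At an unadjusted p under 0.05 they had 3 of 17 other ETS genes, 3 of 25 core genes, 1 of 3 other Sprouty, Spred and Sef genes, and 0 genes in the other 4 lists, beside the 11.8% of all tested genes. Lars2 and Gm42418, which tend to pick up ribosomal RNA reads and are named after their values were seen, moved beside these changes. Lars2 averaged 1663 ± 36.4 with 3MB-PP1 and 2112 ± 276 untreated (SD, n = 2 each), and Gm42418 averaged 100.7 ± 16 with 3MB-PP1 and 126.8 ± 2.61 untreated. Neural markers summed to 162.7 and 164.7 with 3MB-PP1, against 147.6 and 154.4 in the untreated GSK3α line, and mesendoderm markers to 5.22 and 5.43, against 6.85 and 6.34, with 0 of 5 and 0 of 3 tested past the threshold with limma and 1 in each list at an unadjusted p under 0.05. Their part in the results was not tested.

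**Figure D3:**
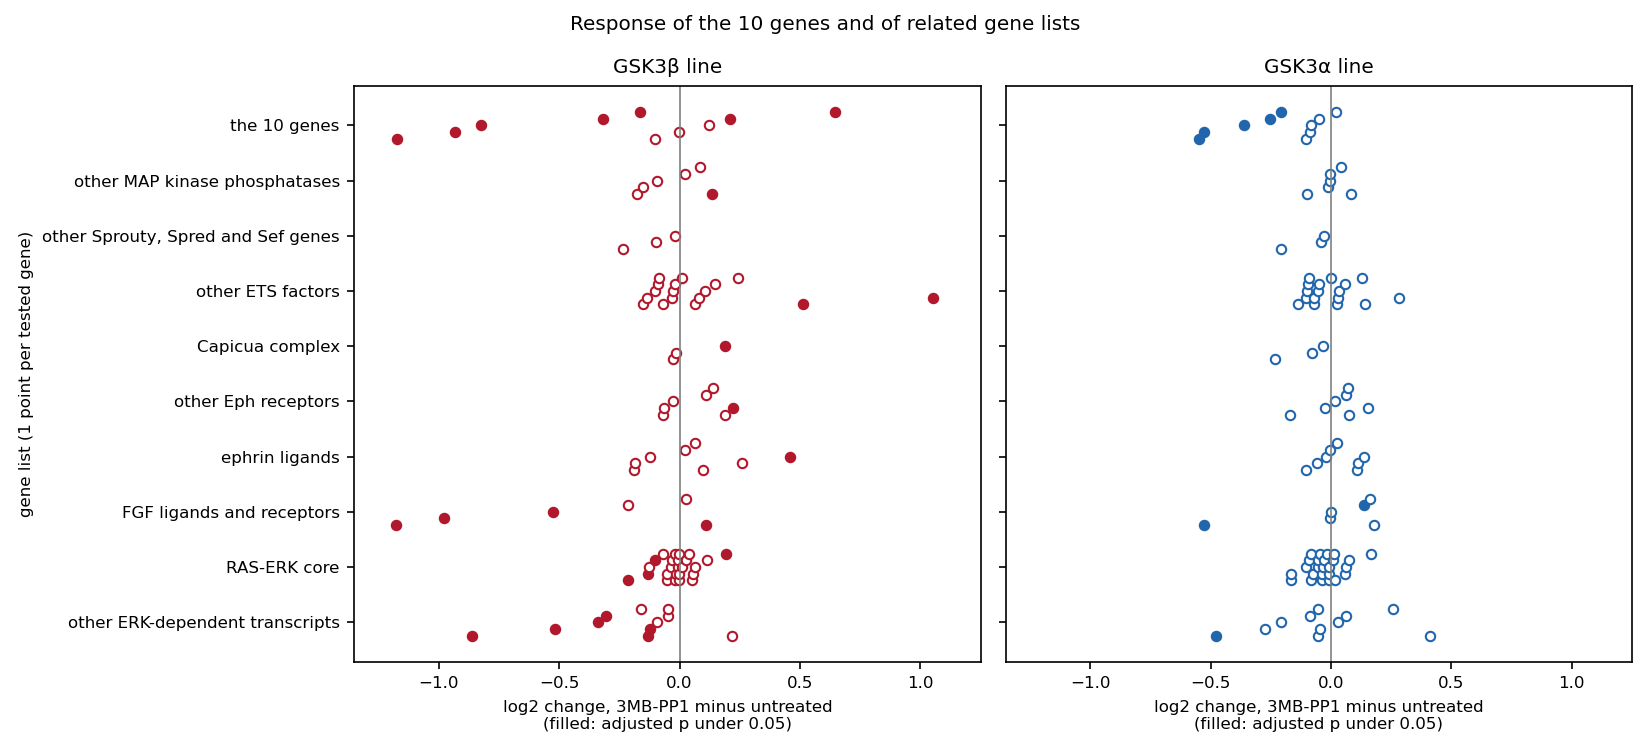
Log2 change with 3MB-PP1 (3MB-PP1 minus untreated, horizontal axis) of every tested gene of the 10 genes and the 9 related lists (vertical axis), in the GSK3β line (left) and the GSK3α line (right). Filled points had an adjusted p under 0.05. Other ERK-dependent transcripts had 6 lower in the GSK3β line and 1 lower in the GSK3α line.

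The difference of the responses, GSK3β line minus GSK3α line, tests whether the lines responded unequally. Of the 10 genes 3 had a lower response in the GSK3β line, where 2.9% of all tested genes did, and 2 had a higher one, where 3.62% did. Dusp6 differed most, at a log2 difference of -0.92 ± 0.07 (SE; limma adjusted p = 2.12e-07), with log2 changes of -1.17 in the GSK3β line and -0.25 in the GSK3α line. Epha4 differed the other way, at 0.73 ± 0.06 (limma adjusted p = 3.92e-07), with log2 changes of 0.64 and -0.081 in these lines. Spry4 (-0.38 ± 0.07, limma adjusted p = 0.00149) and Epha2 (-0.29 ± 0.05, adjusted p = 0.000618) fell further in the GSK3β line. Etv5 had a difference of 0.26 ± 0.04 (limma adjusted p = 0.000818). Without the mean-variance trend the differences of Dusp6 and Epha4 passed and those of Epha2 (adjusted p = 0.0644), Spry4 (0.0711) and Etv5 (0.102) did not.

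Dusp4 and Spry2 fell in both lines, and no difference between the lines was detected for either. The difference for Dusp4 was 0.044, with a 95% interval from -0.18 to 0.27, and for Spry2 it was 0.040, with an interval from -0.10 to 0.18. Etv4 had 0.10 (-0.023 to 0.23), Spred1 0.084 (-0.033 to 0.20) and Spred2 -0.0011 (-0.11 to 0.11). In the lists, the FGF ligand genes Fgf5 (-1.14, limma adjusted p = 0.000332) and Fgf4 (-0.66, adjusted p = 5.2e-08) also had a lower response in the GSK3β line, and the ETS gene Spic (1.15, adjusted p = 0.000246) a higher one.

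The untreated lines differed before any inhibitor was added. All 10 genes had lower means in the untreated GSK3β line than in the untreated GSK3α line. Over all 13959 tested genes 7446 had a log2 difference below 0. Of the 10 genes 8 passed the test as lower and 0 as higher, where 25.9% of all tested genes were lower and 22.3% higher. The median log2 difference of the 10 genes was -0.35, against -0.018 over all tested genes. Spry4 was lowest relative to the GSK3α line, at means of 47.5 ± 0.466 in the untreated GSK3β line and 68.8 ± 3.75 in the untreated GSK3α line (SD, n = 2 each; log2 -0.53, limma adjusted p = 4.07e-08). Spry2 averaged 30.8 ± 0.462 and 42.6 ± 0.927 (log2 -0.45), Epha2 121.5 ± 0.212 and 165.6 ± 3.70 (-0.44), Epha4 41.1 ± 0.430 and 55.8 ± 1.86 (-0.43) and Spred1 60.3 ± 0.813 and 80.9 ± 2.26 (-0.42), in the GSK3β and the GSK3α line. In all 10 genes, also in those that did not pass, both libraries of the GSK3β line lay below both of the GSK3α line. The share of all tested genes without overlap was not counted, so this separation cannot be read as a trait of the 10 genes.

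Smaller differences were found for Dusp4 (log2 -0.29, limma adjusted p = 0.00425), Etv4 (-0.28, adjusted p = 2.97e-05) and Spred2 (-0.19, adjusted p = 0.000349). The Dusp4 call ended without untreated replicate 1 of the GSK3β line (-0.19, adjusted p = 0.0797) or, in the GSK3α line, untreated replicate 2 (-0.23, adjusted p = 0.0520). Dusp6 averaged 50.2 ± 1.26 in the untreated GSK3β line and 54.2 ± 2.19 in the untreated GSK3α line and did not pass (log2 -0.11, 95% interval -0.22 to -0.00060, adjusted p = 0.0904). Etv5, at 552.9 ± 13.6 and 580.8 ± 16.1, did not pass either (log2 -0.071, interval -0.13 to -0.0073, adjusted p = 0.0614), and it passed without untreated replicate 2 of the GSK3β line (-0.096, adjusted p = 0.0293) or, in the GSK3α line, untreated replicate 1 (-0.099, adjusted p = 0.0317). Dusp6, the gene with the largest fall in the GSK3β line, was thus among those least separated at baseline.

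**Figure D4:**
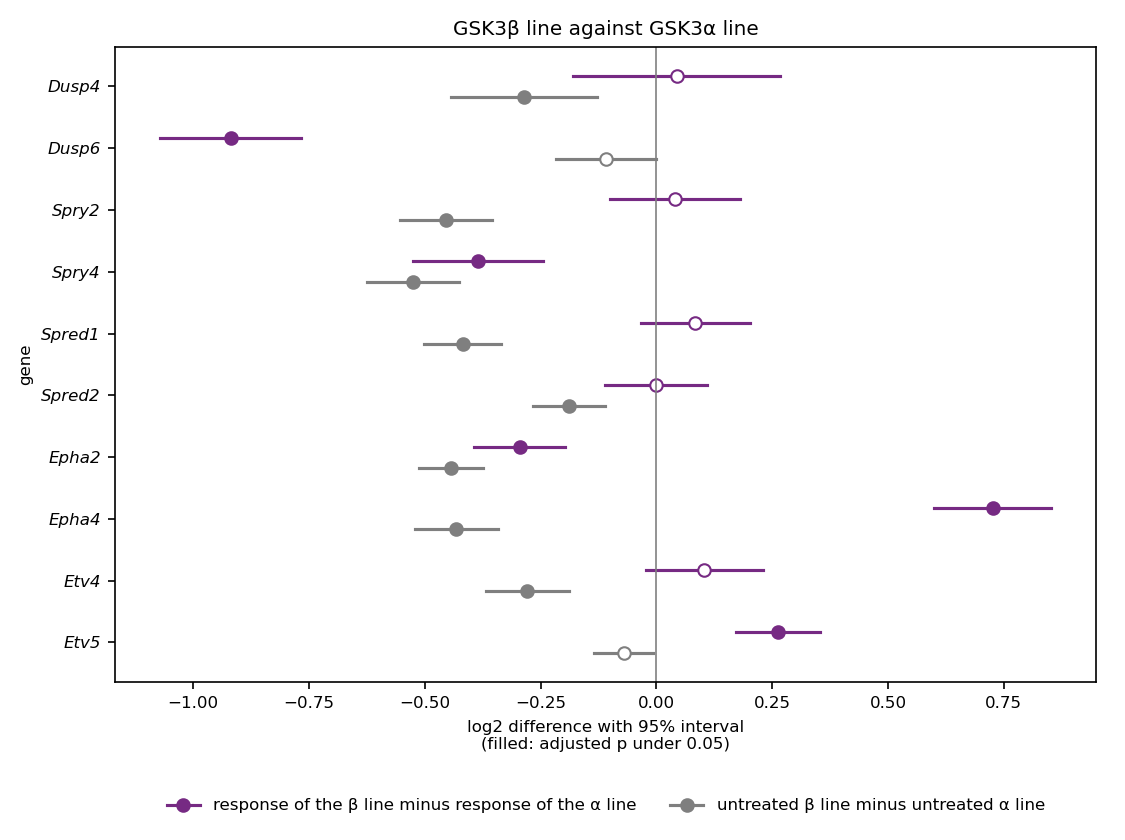
Log2 differences between the lines for each gene, with 95% intervals on the horizontal axis: response of the GSK3β line minus response of the GSK3α line (purple) and untreated GSK3β line minus untreated GSK3α line (grey); filled points had an adjusted p under 0.05. All 10 grey points lie below 0, while the purple points run from -0.92 for Dusp6 to 0.73 for Epha4.

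Sums of marker lists moved beside this comparison. Mesendoderm markers summed to 2.50 and 3.49 in the untreated GSK3β line, against 6.85 and 6.34 in the untreated GSK3α line, and fibroblast markers to 14.03 and 16.06, against 11.3 and 11.6. Of the 3 tested mesendoderm markers 1 passed, as lower (T, means of 0.758 and 3.51). Of the 3 tested fibroblast markers 1 passed, as higher (Thy1, 11.6 and 7.65), while the collagen gene Col1a1 (1.58 and 1.67) and Pdgfrb (1.57 and 1.92) had lower means in the untreated GSK3β line. Of the 8 pluripotency markers 3 passed as higher and 4 as lower, where 22.3% of all tested genes were higher and 25.9% lower. Zfp42 was the lowest of them relative to the GSK3α line (583.2 and 759.7, log2 -0.38, limma adjusted p = 2.42e-08). The higher calls were Nanog (limma adjusted p = 0.0146), Tdgf1 (0.0263) and Dppa5a (0.0456). Their part in the results was not tested.

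Related genes did not all share the lower baseline, in a comparison where 25.9% of all tested genes were lower and 22.3% higher. Of the 3 tested other Sprouty, Spred and Sef genes 3 were lower in the untreated GSK3β line, among them Spry1 (log2 -0.28, limma adjusted p = 0.00591). The calls of the other 2 depended on single libraries: Il17rd did not pass without untreated replicate 1 of the GSK3β line (-0.13, adjusted p = 0.0875) or of the GSK3α line (-0.091, 0.19), nor Spred3 without the GSK3α line's untreated replicate 2 (-0.25, 0.0564). Of 6 other phosphatase genes 3 were higher and 2 lower, and Dusp9, an ERK phosphatase, had 131.2 and 137.8 in the untreated GSK3β line, against 93.1 and 93.4 in the untreated GSK3α line (log2 0.52, adjusted p = 8.45e-10). The higher call of Dusp10 (log2 0.37, limma adjusted p = 0.0362) ended without the mean-variance trend (adjusted p = 0.0536). Leaving out 1 library gave log2 differences of 0.24 to 0.51 for Dusp10. Of 25 core genes 8 were lower and 6 higher. Ptpn11, which encodes the phosphatase SHP2 (log2 -0.80, limma adjusted p = 1.2e-10), and the adaptor gene Gab1 (-0.47, adjusted p = 1.29e-09) were lower. Of 17 other ETS genes 7 were higher and 3 lower, with Etv6 at 0.64 and Etv1, the remaining PEA3 gene, at 0.54. The Capicua gene Cic was lower (log2 -0.30, adjusted p = 3.42e-06), 4 of 6 FGF genes were higher and 0 lower, and 4 of 7 other Eph receptors were lower and 1 higher.

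Likeness of pattern was measured as the root mean square difference between 2 genes' log2 group means. Each gene was centred on its own mean over the 4 groups, and the result is a description over 4 points with no test. The root mean square of the centred means themselves was 0.525 for Spry4, 0.511 for Dusp6 and 0.455 for Epha2. For the others it was 0.237 (Spry2), 0.232 (Epha4), 0.216 (Dusp4), 0.191 (Spred1), 0.122 (Etv4), 0.108 (Spred2) and 0.0826 (Etv5). Distances were not scaled to this, so a smaller distance for a gene that varied less does not show a closer likeness. Among the 10 genes Spry4 and Epha2 were the closest pair, at 0.0752, and Dusp6 and Epha4 the farthest, at 0.693. The nearest genes outside the 10 were Inhbb (0.102) and Ccng2 (0.186) for Dusp6, Bnip3 (0.161) and Esrp1 (0.182) for Spry4, and Bnip3 (0.147) and Inhbb (0.156) for Epha2. Epha4 had Gm4076 at 0.00872 and Rasgrp1, a RAS activator gene, at 0.0167, and Etv5 had Eomes at 0.0100 and Eif2b4 at 0.0117. The nearest were Zfp60 (0.00515) and Fam171b (0.00686) for Etv4, Rapgef4os1 (0.0157) and Samd15 (0.0169) for Dusp4, and Slc39a14 (0.0155) and Gm10696 (0.0221) for Spry2. Cmah (0.00836) and Mmrn2 (0.00856) lay nearest to Spred1, and Med23 (0.0056) and Araf (0.0106), a RAF kinase gene, to Spred2.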

How the data were processed

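Total RNA of 8 libraries was sequenced after TruSeq preparation, per the labels' protocols. TopHat2 and Partek with the mouse build mm10 are named in the submitters' processing notes, and their versions and settings, including strand, are not given in the sources used here. The deposited values are signal: gene counts that the authors scaled to an equal upper quartile, which are not raw counts. One read was taken as the smallest value of a library, and 63.5 to 67.6% of values up to 20 reads were then whole to within 0.1, so no count test was run.

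Testing was restricted to genes averaging at least 1 across all 8 libraries and used limma-trend (limma 3.58.1, R 4.3.3, data.table version 1.17.8) on log2(value + 1), which understates changes of low genes. The fit had 1 mean per group and 4 residual degrees of freedom. For tests and intervals limma drew each gene's spread toward a trend over all tested genes, which added to these degrees of freedom. Tests were two-sided, adjusted by Benjamini-Hochberg over 13959 genes in each of 4 comparisons, with a threshold of 0.05, and were tested on simulated data. Comparisons that use the same libraries are not independent. All 10 genes are named, with up to 3 non-overlapping genes per list and comparison of the largest change, 2 nearest profiles per gene, Gsk3a and Gsk3b. The genes and lists were chosen with earlier results of these data known. Alternatives were another added constant, filter, scaling, no trend, only the libraries compared, a replicate block and each library left out. Levels per kb and exon overlaps used GENCODE M21, where no annotated gene shared exon bases with the 10.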

Additional observations from a re-analysis of the deposited data

Results flagged for a closer look

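The response to 3MB-PP1 differed between the GSK3β and the GSK3α line by the test of the difference itself (GSK3β line minus GSK3α line, log2, limma adjusted p over all tested genes) for 5 of the 10 genes. Dusp6 (-0.9196, adjusted p = 2.12e-07), Spry4 (-0.3847, 0.00149) and Epha2 (-0.2949, 0.000618) had the lower response in the GSK3β line, and Epha4 (0.726, 3.92e-07) and Etv5 (0.2626, 0.000818) the higher one.

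The same test passed for 9 genes of the lists. Over all tested genes 2.9% had a lower response in the GSK3β line and 3.62% a higher one. Of the 6 tested FGF genes 3 passed, of 17 other ETS genes 2 and of 11 other ERK-dependent transcripts 2. Of 25 core genes 1 passed and of the 3 Capicua complex genes 1, with 0 in the remaining lists. Fgf5 (-1.143), Fgf4 (-0.6607), Fgf15 (-0.6504), Myc (-0.3837), Mapk3 (-0.2877) and Mcl1 (-0.2187) had a lower response in the GSK3β line, and Spic (1.147), Elf3 (0.563) and Cic (0.2197) a higher one. The call of Fgf15 ended without untreated replicate 1 of the GSK3β line (-0.51, adjusted p = 0.0633) or 3MB-PP1 replicate 2 of the GSK3α line (-0.60, 0.0599). That of Myc ended without 3MB-PP1 replicate 1 of the GSK3β line (-0.38, adjusted p = 0.0734), or without 3MB-PP1 replicate 2 (-0.34, 0.109) or untreated replicate 1 (-0.25, 0.0897) of the GSK3α line. That of Cic ended without replicate 1 of either group of the GSK3β line (3MB-PP1 0.21, adjusted p = 0.105; untreated 0.20, 0.0587), without either 3MB-PP1 library of the GSK3α line (0.21 and 0.23, adjusted p = 0.0929 and 0.0656) or without its untreated replicate 2 (0.17, 0.0939).

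Without the mean-variance trend the differences of Epha2 (adjusted p = 0.0644), Spry4 (0.0711) and Etv5 (0.102) no longer passed, nor did those of Elf3 (0.0675), Mapk3 (0.0813), Fgf15 (0.112), Mcl1 (0.143), Cic (0.172) and Myc (0.181).

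Gsk3a also differed (0.188, adjusted p = 0.0244), as did Lars2 (0.4634, 0.0056) and Gm42418 (0.3359, 0.0424).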

How the results depend on the processing

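Over the 10 genes and 4 comparisons, 584 of the alternative values kept direction and side of the threshold, 31 lost their call, 4 gained one and 11 changed sign. Calls of Dusp6, Spry4, Epha2, Epha4 and Etv5 in the GSK3β line, of Epha2 in the GSK3α line, and the differences of Dusp6 and Epha4 passed under every alternative run. Between the untreated lines those of Spry2, Spry4, Spred1, Spred2, Etv4, Epha2 and Epha4 did so too. Without the mean-variance trend 1 of the 10 genes passed in the GSK3α line and 2 in the difference, and over all tested genes 980 passed in the GSK3β line, 3 in the GSK3α line and 133 in the difference, against 2084, 123 and 911. The cause was not tested. Leaving out 1 library at a time, 2 to 5 of the 10 genes passed in the GSK3α line, and over all tested genes 864 to 2277 passed in the GSK3β line, 16 to 186 in the GSK3α line and 353 to 1339 in the difference. A library left alone in its group was assumed to vary like the others.

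Sign changes affected values near 0 that had not passed. With median-of-ratios scaling Spred1 in the GSK3β line was at 0.00597 and the difference of Spred2 at 0.0123. Leaving out 1 library gave ranges across 0 of -0.000227 to 0.0395 for Etv4 in the GSK3α line, -0.0543 to 0.142 for the difference of Dusp4, -0.038 to 0.0357 for that of Spred2, and -0.0257 to 0.0235 for Spred1 in the GSK3β line.

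With the replicate number as a block (replicate block) 7 of the 10 genes passed in the GSK3β line, 4 in the GSK3α line, 5 in the difference and 8 between the untreated lines, and among the 10 genes only Spry2 in the GSK3α line lost its call (adjusted p = 0.0632). Deviations of same-numbered libraries correlated at -0.0447 to 0.0271, so the numbers were not taken to pair the libraries. No alternative that kept all libraries moved the median log2 of all genes by more than 0.0163. Dusp4 had the fewest estimated reads, 379 to 534 a library, and all values rest on 2 libraries a group.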
